A study of Mus musculus with 16 samples.

Results

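Bone morphogenetic protein (BMP) signalling in the mouse colon was described through 9 genes among the 56748 in the deposited expression table, of which 32841 had at least 1 count. The genes were taken by name and fall into 4 roles: the ligands Bmp2, Bmp4, Bmp5 and Bmp7, the secreted antagonists Nog and Grem1, the inhibitory Smads Smad6 and Smad7, and the transcriptional target Id1. They were chosen with earlier results of these data known. All 9 passed the filter on low counts in every comparison, Bmp5 with as few as 0 counts in 1 library.

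Bulk RNA-seq was performed on the longitudinal muscle and myenteric plexus (LMMP) microdissected from the colon of 2- to 4-week-old mice of both sexes, of hybrid C57BL6/J-129Sv background. HSCR mice were homozygous for the Ednrb tm1Ywa allele (Ednrb -/-), which disrupts the endothelin B receptor throughout the body and leaves the distal colon without ganglia, as in Hirschsprung disease. WT mice were Ednrb +/+ littermates, and no treatment is named for either genotype. Each genotype gave 4 libraries of proximal and 4 of distal colon (16 in all, 21384372 to 45831881 counts assigned to genes), the distal ones being so named by their titles although their tissue field also says proximal, and no source used here ties a library to a mouse, so p-values measure the spread between libraries.

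BMP ligands are secreted dimers that bring type I and type II receptor kinases together, which phosphorylate Smad1, Smad5 and Smad9. These enter the nucleus with Smad4 and switch on the Id genes, inhibitors of basic helix-loop-helix transcription factors, and also Smad6 and Smad7, which shut the receptors and their substrates off again. In the gut, BMP ligands and antagonists made by muscle and stromal cells shape the crypts, the smooth muscle layers and the enteric nervous system, and Grem1 and Nog bind the ligands before they reach a receptor.

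Some libraries stood apart before any comparison was made. Ednrb CPM (counts scaled to the TMM-adjusted library size) were 33.8 to 67.1 in WT proximal and 7.84 to 37.4 in HSCR proximal colon, with overlap, and 11.8 to 43.0 in WT distal colon. HSCR proximal libraries 3 and 4 held 37.4 and 35.3 CPM, above WT proximal library 2 at 33.8 CPM. The library labelled HSCR distal 1 held 94.7 CPM, the highest of all 16 libraries, against 5.43 to 9.48 in the other HSCR distal libraries. The same library had 1314 summed CPM over 12 enteric neuron genes, against 21.2 to 91.1 in the other HSCR distal libraries. In the libraries labelled HSCR proximal 1 and 2 this sum was 84.2 and 125 CPM, against 2063 and 2980 in the other HSCR proximal libraries. Low sums were not confined to HSCR, since WT distal libraries 1 and 2 had 95.2 and 343 CPM, against 2532 and 1837 in WT distal libraries 3 and 4. Over 6 posterior Hox genes, the mean log2 CPM was 4.15 to 4.66 in WT distal and 0.46 to 2.96 in WT proximal colon, whereas HSCR proximal library 1 stood at 3.90 and HSCR distal library 1 at 1.41, with HSCR distal library 4 at 2.29. The HSCR libraries numbered 1 thus went against their segment labels, and the library labelled HSCR distal 1 held more Ednrb than any WT library. Since HSCR and WT proximal libraries overlapped in Ednrb, its level does not settle the genotype of a library. All libraries were kept as labelled, and for the 9 genes in HSCR against WT colon, values without the HSCR library numbered 1 are given where its loss turned a sign, moved a value by over 1.5 times or changed the side of an unadjusted p of 0.05.

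Id1 carries a well-studied BMP response element, and a GC-rich motif of such elements bound by Smad1 and Smad5, GGCGCC, was looked for in the 3000 bases before the annotated start of each gene (GRCm39, GENCODE vM39). This palindrome reads alike on both strands. It was found once each before Id1, Smad6, Grem1 and Nog and not before the other members, and 21.1% of 21768 protein-coding genes held it in such a window. The windows around the motif are shown for Id1 and Smad6, whose levels stood apart between genotypes below, and for Grem1, the most abundant member. Each has 60 bases on either side, is read on the strand of the gene, and has GGCGCC and each GTCT or AGAC (the Smad4 box on either strand) in capitals. A GTCT on either strand lay in the flanks of 53.6% of all 6242 GGCGCC motifs counted, so its presence beside a motif is common.

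Id1 (chr2:152577012-152577137, plus strand, motif 1093 bases before the start): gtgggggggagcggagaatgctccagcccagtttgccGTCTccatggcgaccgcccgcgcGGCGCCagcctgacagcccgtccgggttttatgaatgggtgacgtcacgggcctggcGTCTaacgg
Smad6 (chr9:63930278-63930403, minus strand, motif 932 bases before the start): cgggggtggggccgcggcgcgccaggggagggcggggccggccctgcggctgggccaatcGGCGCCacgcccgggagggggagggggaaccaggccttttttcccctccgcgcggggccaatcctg
Grem1 (chr2:113589006-113589131, minus strand, motif 71 bases before the start): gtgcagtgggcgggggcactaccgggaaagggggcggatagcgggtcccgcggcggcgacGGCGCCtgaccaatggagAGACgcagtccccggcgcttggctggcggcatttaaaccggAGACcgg

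The Id1 window held 2 GTCT boxes, the Grem1 window 2 and the Smad6 window 0. The motif lay far upstream in Id1 and Smad6 and close to the start in Grem1. A match of letters is a description and was not tied to binding in these mice.

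Compared per length, Grem1 was the most abundant of the 9 genes. On the deposited FPKM scale it ranked first in 10 of 16 libraries, Id1 in 4 and Bmp4 in 2, and Bmp5 was last in 12. The mean over the 16 libraries was 56.2 FPKM for Grem1, 33.9 for Id1, 19.3 for Bmp4, 5.58 for Smad6, 3.87 for Smad7, 3.17 for Bmp2, 2.37 for Nog, 1.33 for Bmp7 and 0.455 for Bmp5. Grem1 was also the least steady of the abundant members, with a 69.96-fold span between its lowest and highest library in CPM, against 9.44-fold for Bmp4, 8.56-fold for Id1, 4.13-fold for Smad6 and 3.89-fold for Smad7. Bmp4 overlaps the long non-coding gene Gm15222 on the other strand, which held 0 to 199 counts, and the kits named in the labels include one that keeps no strand, so part of the Bmp4 signal cannot be told apart from it.

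**Figure D1:**
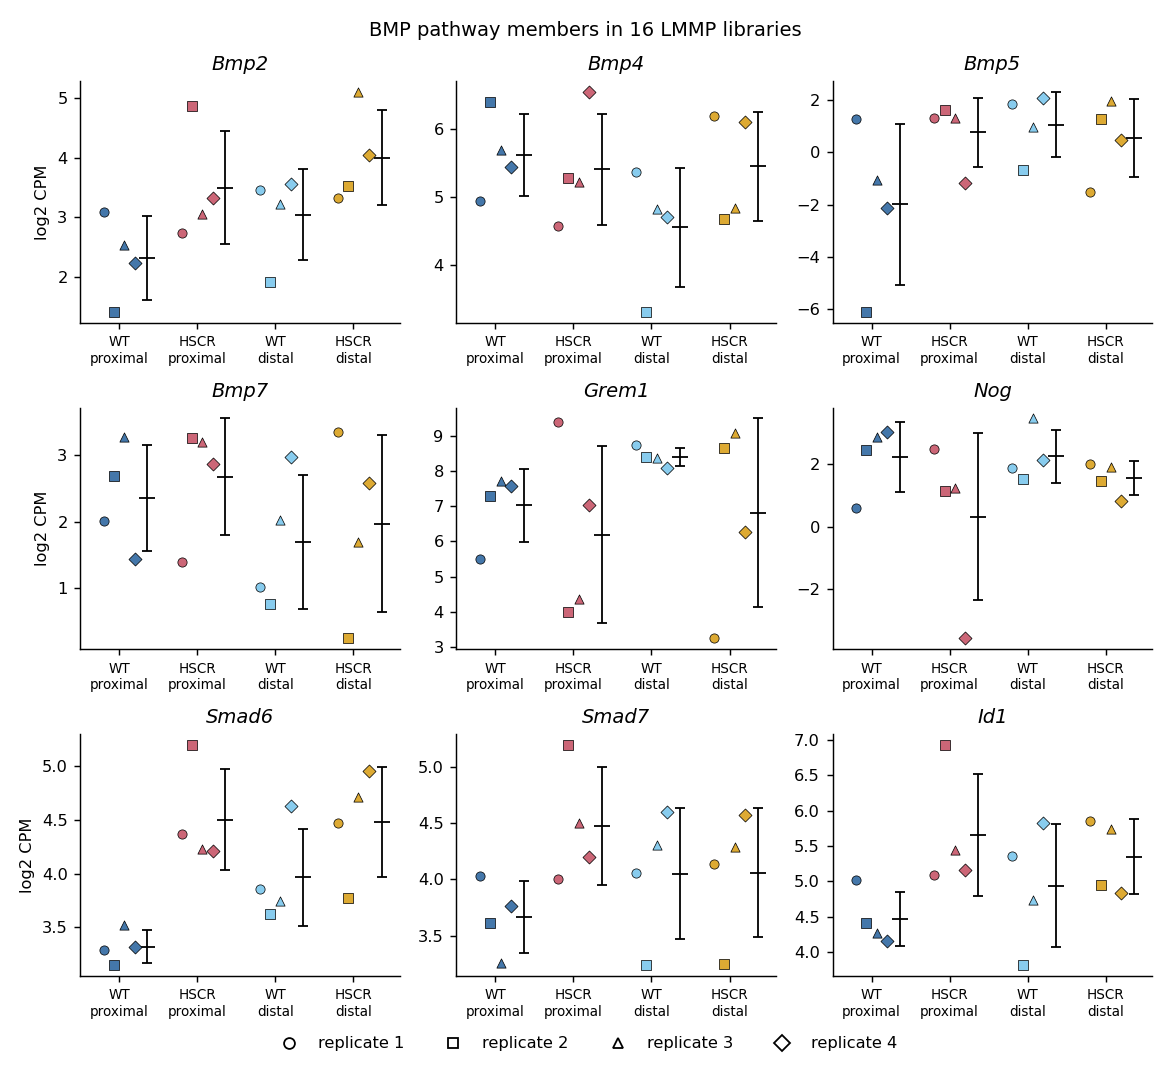
Level of each of the 9 genes (log2 CPM with a prior count of 0.5, 1 panel a gene) in the 16 LMMP libraries, grouped by genotype and colon segment; marker shape gives the replicate number, and the bar beside each group is its mean ± SD of 4 libraries. Smad6 and Id1 lie higher in each HSCR proximal library than in any WT proximal library, Grem1 is spread widely in both HSCR groups, and the lowest Bmp5 point is a library with 0 counts.

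The question of the proximal comparison was how the ganglionic colon of HSCR mice differs from the equivalent WT segment. The clearest differences among the 9 genes were in the genes at the receiving end of the pathway. Smad6, Smad7 and Id1 were each higher in HSCR proximal colon at an unadjusted p under 0.05 by edgeR's quasi-likelihood test, 3 of 9 members against 2.48% of the 16664 genes tested. None of the members passed the call used here (Benjamini-Hochberg adjusted p under 0.05 and a log2 fold change beyond 1), and neither did any other gene (0%). With either direction counted, 6.62% of genes had an unadjusted p under 0.05. Because the 9 genes were chosen with earlier results of these data known, shares of members here and below are descriptions, not tests.

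Smad6, which blocks BMP type I receptors, gave the steadiest difference. It stood at 9.76, 8.88, 11.5 and 9.98 CPM in the 4 WT proximal libraries and at 20.6, 36.6, 18.7 and 18.5 CPM in the 4 HSCR proximal libraries. Every HSCR library lay above every WT library, and the WT libraries were closely bunched. The WT mean was 10.0 ± 1.07 CPM and the HSCR mean 23.6 ± 8.72 CPM (SD, n = 4 each), with an exact permutation p of 0.0286 (two-sided), the smallest that 4 against 4 libraries can give. The fitted log2 fold change was 1.23 ± 0.32 (SE, edgeR unadjusted p = 0.00382, adjusted p = 0.649).

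Id1, the classical read-out of BMP signalling, gave 32.5, 21.4, 19.4 and 17.9 CPM in WT proximal colon and 33.97, 121, 43.6 and 35.8 CPM in HSCR proximal colon. The groups did not overlap, though WT library 1 and HSCR library 1 nearly met, and HSCR library 2 lay far above the rest. Its log2 fold change was 1.36 ± 0.47 (SE, edgeR unadjusted p = 0.0179, adjusted p = 0.747), and the exact permutation p was 0.0286, again the smallest possible. Smad6 and Id1 were thus 2 of 9 members without overlap in the higher direction, against 1.95% of all genes tested.

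Smad7, which acts on both the BMP and the TGF-beta receptors, was at 16.3, 12.2, 9.52 and 13.6 CPM in WT and at 16.01, 36.6, 22.7 and 18.4 CPM in HSCR proximal colon. HSCR library 1 lay just below WT library 1, so the groups overlapped, and the exact permutation p was 0.0571. Its log2 fold change was 0.85 ± 0.35 (SE, edgeR unadjusted p = 0.0387, adjusted p = 0.747).

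HSCR proximal library 2 had the highest Smad6, Smad7 and Id1 of the 16 libraries. Without it, the log2 fold change was 0.92 for Smad6, 0.70 for Id1 and 0.53 for Smad7, with unadjusted p of 0.00624, 0.0334 and 0.109 by edgeR's quasi-likelihood test. Smad6 and Id1 therefore kept an unadjusted p under 0.05 without that library and Smad7 did not. Split by replicate number, replicates 1 and 2 against replicates 3 and 4, the difference in mean log2 CPM was 1.56 and 0.80 for Smad6, 1.29 and 1.08 for Id1, and 0.78 and 0.85 for Smad7, higher in HSCR in both. The names of replicates 3 and 4 begin with CM in WT and with LC or CM in HSCR proximal colon. This split therefore does not hold the library name series constant.

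Transcripts of other cell types moved with the same comparison. All 12 genes of a colon epithelium list were higher in HSCR proximal colon, with a summed level of 48.8 to 3638 CPM in WT and 245 to 16655 CPM in HSCR libraries, the highest in HSCR library 2, which also had the lowest summed level of 8 smooth muscle genes (4379 CPM). No gene of either list was at 0 in all libraries of a group. WT library 1, with 3638 summed epithelial CPM, had a Smad6 level of 9.76 CPM, but the highest Id1 (32.5 CPM), Smad7 (16.3 CPM) and Bmp2 (8.47 CPM) of the WT proximal libraries. HSCR library 4, with 245 summed epithelial CPM, had 18.5 CPM of Smad6. Of 8 enteric glia genes 7 were lower in HSCR proximal colon, with a summed level of 352 to 800.0 CPM in WT and 111 to 368 CPM in HSCR. The mean log2 CPM of the glia list differed by -1.85, with every HSCR library below every WT one (exact permutation p = 0.0286). Of 7 endothelial genes, a cell type in which Smad6 and Id1 are well known to be active, 5 were lower. Their sum was 130 to 328 CPM in WT and 54.0 to 522 CPM in HSCR. The 522 CPM was that of HSCR library 4 and the 54.0 CPM that of HSCR library 2. Of 12 enteric neuron genes 11 were lower (608 to 3761 summed CPM in WT and 84.2 to 2980 CPM in HSCR), and all 4 telocyte genes were higher (70.4 to 93.7 and 58.3 to 151 CPM). Mitochondrial genes took 7.31 to 49.8% of the counts in WT and 5.56 to 20.1% in HSCR proximal libraries. The 49.8% was that of WT library 1, the WT library with the most epithelial transcripts, and WT library 4 had 34.6%. The 20.1% was that of HSCR library 4. The part of these cell types and of RNA quality in the Smad and Id1 values was not tested, and fewer cells of a type and less RNA per cell cannot be told apart in bulk tissue.

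**Figure D2:**
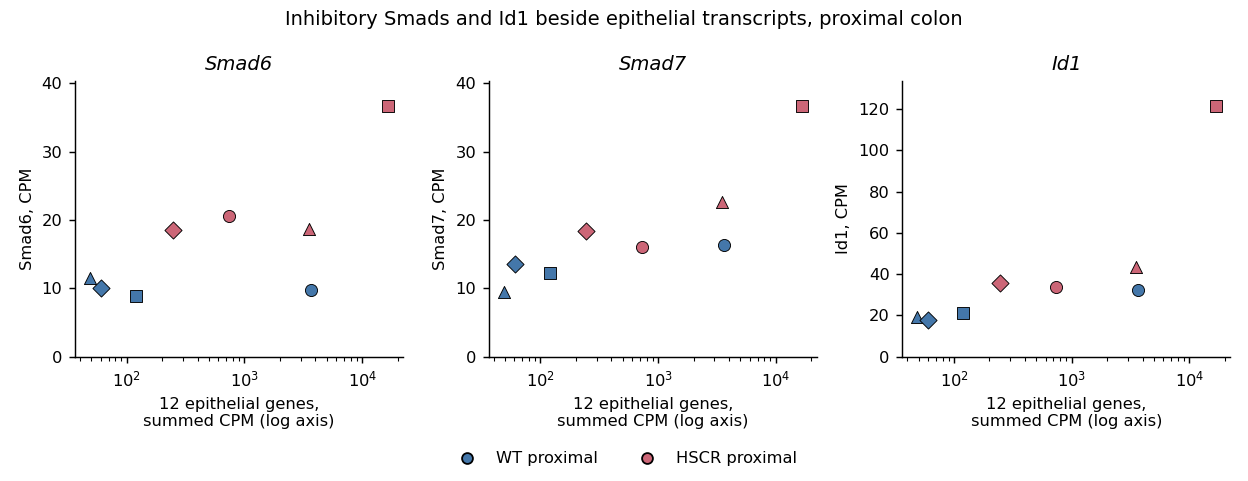
Smad6, Smad7 and Id1 levels (CPM, linear axis from 0) in the 8 proximal libraries plotted against the summed CPM of 12 epithelial genes (log axis), coloured by genotype, with marker shape giving the replicate number. HSCR library 2 is highest on both axes in each panel, while WT library 1, at 3638 summed epithelial CPM, has 9.76 CPM of Smad6, among the other WT libraries, and the highest WT level of Smad7 (16.3 CPM) and Id1 (32.5 CPM).

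The ligands did not share a common direction in the proximal colon. Bmp4, the most abundant of the 4 ligands, made up 77.4 to 94.1% of the summed FPKM of the 4 ligands in WT and 60.3 to 89.8% in HSCR proximal colon. It stood at 30.7, 84.6, 52.0 and 43.5 CPM in WT and 23.9, 38.8, 37.3 and 93.5 CPM in HSCR libraries, so that both the lowest and the highest library were HSCR. Fitted over all 8 libraries, the log2 fold change was -0.12 ± 0.47 (SE, unadjusted p = 0.799), and its sign turned when any of 3 libraries was left out (0.11 without HSCR library 1).

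Bmp2, a ligand of muscularis macrophages and of the differentiated epithelium, was at 8.47, 2.64, 5.80 and 4.67 CPM in WT and at 6.64, 29.2, 8.29 and 9.99 CPM in HSCR proximal colon. Only 2 of 4 HSCR libraries lay above all WT libraries, and HSCR library 2 was again the highest. The log2 fold change was 1.32 ± 0.59 (SE, unadjusted p = 0.0526), 0.60 without that library and 1.56 (unadjusted p = 0.0325) without HSCR library 1. The summed level of 8 macrophage genes was 139 to 412 CPM in WT and 158 to 214 CPM in HSCR, with 4 of 8 higher.

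Bmp7 and Bmp5 were scarce. Bmp7 ranged from 2.68 to 9.62 CPM in WT and from 2.60 to 9.54 CPM in HSCR proximal colon (fitted log2 fold change 0.32 ± 0.56, SE, unadjusted p = 0.575, and 0.62 without HSCR library 1). Bmp5 had 34, 0, 19 and 5 counts in WT and 98, 89, 131 and 12 counts in HSCR libraries, with a log2 fold change of 1.42 ± 1.30 (SE, unadjusted p = 0.304), a value that rested on WT library 1 and became 3.16 without it.

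Of the antagonists, Nog, which locks BMP2 and BMP4 dimers away from their receptors, was at 1.51, 5.43, 7.14 and 8.08 CPM in WT and at 5.55, 2.18, 2.31 and 0.07 CPM in HSCR proximal colon, the last from 2 counts. All HSCR libraries but the first lay below WT libraries 2, 3 and 4, and WT library 1 lay among them. Its log2 fold change was -1.15 ± 0.98 (SE, unadjusted p = 0.272), which the spread does not separate from 0, and -1.86 (unadjusted p = 0.121) without HSCR library 1.

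Grem1, made by smooth muscle and crypt-base stromal cells, was at 45.4, 156, 212 and 190 CPM in WT proximal colon and at 664, 15.9, 20.7 and 131 CPM in HSCR proximal colon. The HSCR libraries enclosed the WT range on both sides, since library 1, whose Hox genes go against its label, was the highest of all 16 and libraries 2 and 3 were far below every WT library. The log2 fold change was 0.45 ± 1.07 (SE, unadjusted p = 0.682) with that library and -1.40 (unadjusted p = 0.131) without it, so no direction can be given for Grem1 here.

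**Figure D3:**
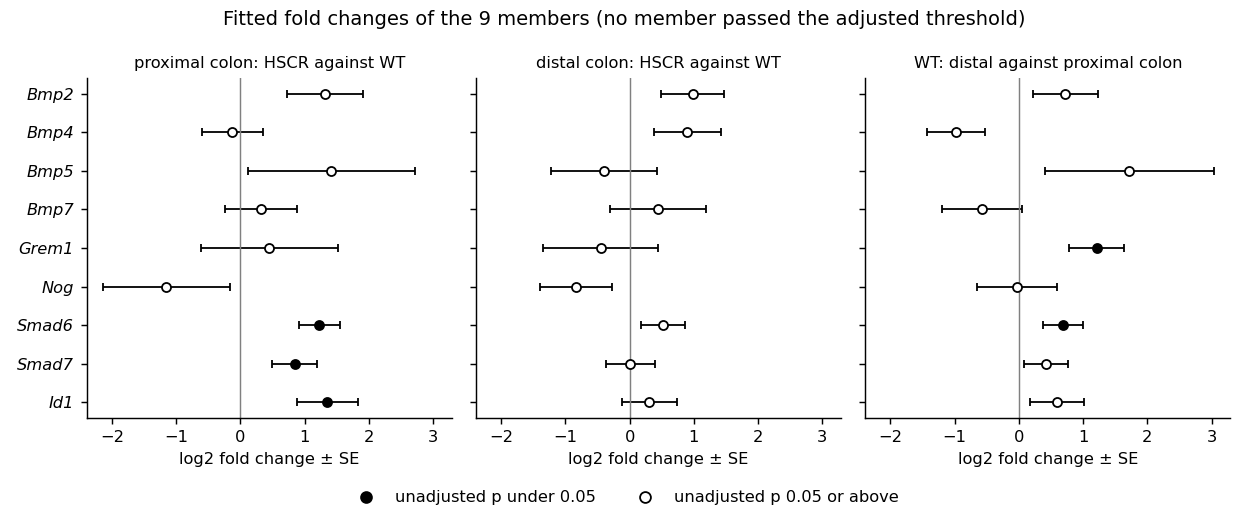
Fitted log2 fold change of each of the 9 genes (horizontal axis, bars ± SE of the edgeR fit) in HSCR against WT proximal colon, HSCR against WT distal colon, and WT distal against WT proximal colon; filled points have an unadjusted p under 0.05. Filled points are Smad6, Smad7 and Id1 in the first panel, none in the second, and Grem1 and Smad6 in the third, and no gene passed after adjustment.

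The test the study names, a likelihood ratio test with 4 RUVr factors of unwanted variation, gave other calls. It called 16% of the genes tested in the proximal comparison, and among them Smad6 (log2 fold change 1.14, adjusted p = 0.000174), Id1 (1.12, adjusted p = 3.71e-06), Bmp2 (1.08, adjusted p = 0.00799) and Bmp5 (3.04, adjusted p = 0.00172). Smad7 was not called by it. The 4 factors were drawn from the residuals of the same 8 libraries and fitted beside the groups. Few degrees of freedom are then left to measure the spread, here and where this test is named below.

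In the distal colon, which lacks ganglia in HSCR mice, the genotypes could not be separated for any member. Of 17059 genes tested 0% passed the call, 2.64% had an unadjusted p under 0.05 and 1.83% had groups without overlap, and 0 of 9 members did any of these. Under the RUVr test 6.54% of genes were called, among them 1 member, Grem1 (log2 fold change -1.74, adjusted p = 0.000935).

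Bmp2 came closest, with 11.0, 3.76, 9.36 and 11.8 CPM in WT and 10.0, 11.5, 34.4 and 16.5 CPM in HSCR distal colon, and 2 of 4 HSCR libraries above all WT libraries. Its log2 fold change was 0.98 ± 0.49 (SE, unadjusted p = 0.0755), and 1.17 (unadjusted p = 0.0495) without the library labelled HSCR distal 1. Bmp4 followed at 41.3, 9.91, 28.4 and 26.2 CPM in WT and 72.8, 25.6, 28.7 and 68.9 CPM in HSCR (fitted log2 fold change 0.90 ± 0.52, SE, unadjusted p = 0.117). HSCR libraries 1 and 4 were the high ones for Bmp4 and library 3 for Bmp2, so the ligands did not peak in the same library.

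The receiving genes were nearer to each other than in the proximal colon. Smad6 was at 14.5, 12.3, 13.4 and 24.7 CPM in WT distal and 22.2, 13.6, 26.1 and 31.0 CPM in HSCR distal colon (log2 fold change 0.52 ± 0.34, SE, unadjusted p = 0.160). Id1 was at 41.2, 14.2, 26.8 and 56.8 CPM in WT and 57.9, 31.0, 53.6 and 28.6 CPM in HSCR (0.31 ± 0.43, unadjusted p = 0.495), and Smad7 ranged from 9.43 to 24.2 CPM in WT and from 9.48 to 23.7 CPM in HSCR (0.01 ± 0.38, unadjusted p = 0.980). The groups overlapped for all 3 genes. Without the library labelled HSCR distal 1, Id1 was at 0.10 and Smad7 at -0.01.

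The test of the difference between the segments did not separate them. The genotype effect in the distal colon minus that in the proximal colon was -0.72 ± 0.46 for Smad6, -0.84 ± 0.52 for Smad7 and -1.06 ± 0.67 for Id1 on the log2 scale (SE, edgeR unadjusted p = 0.139, 0.128 and 0.135). No member had an unadjusted p under 0.05 for this difference, as against 1.44% of 18619 genes, and 0% of genes passed after adjustment. Without both HSCR libraries numbered 1 the values were -0.82, -1.05 and -1.50, and without HSCR proximal library 2 they were -0.39, -0.51 and -0.38.

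Among the antagonists of the distal colon, Nog was at 2.86 to 10.9 CPM in WT and at 1.76 to 3.94 CPM in HSCR libraries (log2 fold change -0.83 ± 0.56, SE, unadjusted p = 0.171), with the highest level in WT library 3. Grem1 was at 426, 339, 329 and 271 CPM in WT and at 9.497, 404, 538 and 77.0 CPM in HSCR libraries. Library 1, labelled distal with Hox genes at the proximal level, was the lowest of all 16, and library 4 lay below every WT distal library. The log2 fold change was -0.45 ± 0.90 (SE, unadjusted p = 0.627) with library 1 and -0.05 without it. Bmp7 (1.68 to 7.85 CPM in WT, 1.17 to 10.1 CPM in HSCR) and Bmp5 (0.62 to 4.24 and 0.34 to 3.92 CPM) overlapped throughout, with log2 fold changes of 0.44 ± 0.75 and -0.40 ± 0.83, and of -0.17 and -0.05 without library 1.

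The difference along the colon was read from the WT libraries, distal against proximal. Names of the higher-numbered replicates begin with CM in WT proximal and with LC in WT distal colon. For these replicates segment and library name series changed together, so the comparison does not hold that series constant. Its part in the WT segment differences was not tested. Grem1 was the member that set the segments apart, at 45.4, 156, 212 and 190 CPM in WT proximal and 426, 339, 329 and 271 CPM in WT distal colon. Every distal library was above every proximal one (exact permutation p = 0.0286), and WT proximal library 1 was well below the rest. The log2 fold change was 1.21 ± 0.43 (SE, edgeR unadjusted p = 0.0188, adjusted p = 0.906), and 0.92 without WT proximal library 1.

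Smad6 was the other member whose WT segments did not overlap, at 8.88 to 11.5 CPM in proximal and 12.3 to 24.7 CPM in distal colon. Its log2 fold change was 0.69 ± 0.31 (SE, edgeR unadjusted p = 0.0499, adjusted p = 0.906), and 0.45 without WT distal library 4 (unadjusted p = 0.178). These 2 of 9 members compare with 2.69% of 16566 genes without overlap in the higher direction and 3.17% with an unadjusted p under 0.05 in that direction. Only 0.0181% of genes were called, no member among them, while the RUVr test called 11.1%, with Grem1 (1.42), Bmp4 (-1.02) and Bmp5 (3.11) among them.

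Bmp4 ran the other way in WT colon. It was lower in 3 of 4 distal libraries than in any proximal library, and the remaining one, at 41.3 CPM, lay inside the proximal range of 30.7 to 84.6 CPM (log2 fold change -0.97 ± 0.45, SE, unadjusted p = 0.0581). Per length, the ratio of Grem1 to Bmp4 FPKM was 0.80 to 2.36 in WT proximal and 5.59 to 18.6 in WT distal libraries, so that the groups were apart by this ratio of antagonist to ligand. In HSCR colon the same ratio ran from 0.22 to 15.0 in proximal and from 0.07 to 10.2 in distal libraries. The 15.0 was that of the library labelled HSCR proximal 1 and the 0.07 that of the library labelled HSCR distal 1. Without them the ratio was 0.22 to 0.76 in proximal and 0.61 to 10.2 in distal libraries, and the segments overlapped through distal library 4 alone.

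The other members did not separate the WT segments. They had log2 fold changes of 0.59 ± 0.42 for Id1, 0.43 ± 0.34 for Smad7, 0.73 ± 0.51 for Bmp2, 1.72 ± 1.31 for Bmp5, -0.57 ± 0.62 for Bmp7 and -0.03 ± 0.62 for Nog (SE), with unadjusted p of 0.185 to 0.967. Of the list of fibroblast markers 5 of 8 genes were higher in WT distal colon, with a summed level of 7998 to 10414 CPM in proximal and 7069 to 10843 CPM in distal libraries. Their mean log2 CPM was 0.50 higher in distal colon, with every distal library above every proximal one (exact permutation p = 0.0286). All 12 epithelial genes were higher in WT distal colon (166 to 2427 summed CPM, against 48.8 to 3638 in proximal libraries) and all 12 enteric neuron genes lower (95.2 to 2532 against 608 to 3761 CPM). The part of these cell types in the Grem1 and Smad6 values was not tested.

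In HSCR mice, distal against proximal colon, no member had an unadjusted p under 0.05 (1.49% of 17086 genes did), none was without overlap (1.27% of genes were) and 0% of genes passed the call. The members' log2 fold changes lay between -0.48 for Bmp7 and 0.36 for Bmp2. Grem1 was at 0.25 ± 1.34 (SE), and at 2.51 (edgeR unadjusted p = 0.0523, adjusted p = 0.920) without both HSCR libraries numbered 1.

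Across the 16 libraries, the gene whose log2 CPM was most like that of Grem1 among 18619 genes was Hoxd13 (Pearson r = 0.891), the most posterior gene of its Hox cluster, followed by Efr3a (0.867) and Rasl11b (0.866). Hoxd13 stood at 0.86 to 23.9 CPM in WT proximal and 117 to 215 CPM in WT distal colon. HSCR proximal library 1 had 125 CPM of Hoxd13 and the highest Grem1 (664 CPM), and HSCR distal library 1 had 0.61 CPM of Hoxd13 and the lowest Grem1 (9.497 CPM). HSCR distal library 4 lay between, with 14.0 CPM of Hoxd13 and 77.0 CPM of Grem1. The WT segments alone differ in both genes, so the libraries fall in groups and r is given as a description only.

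**Figure D4:**
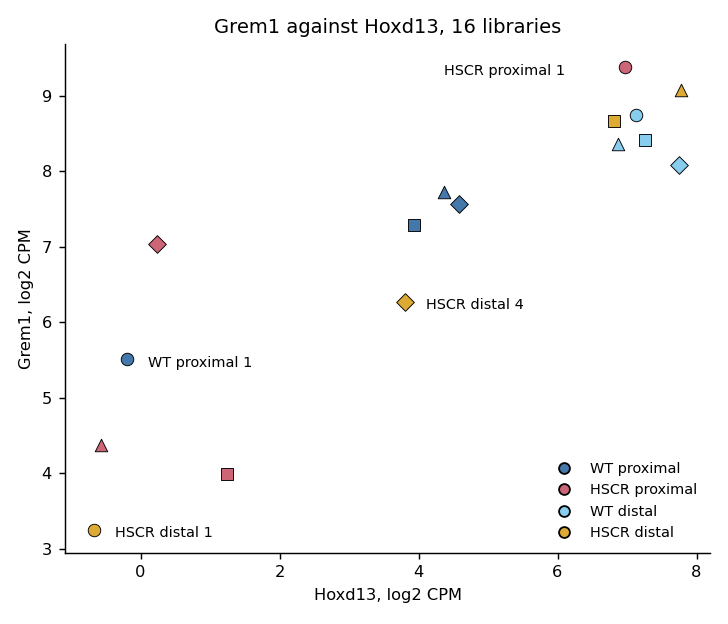
Grem1 against Hoxd13, both in log2 CPM, in the 16 libraries, coloured by group with marker shape giving the replicate number, and with 4 libraries named. The library labelled HSCR proximal 1 lies with the distal libraries at the upper right (125 CPM of Hoxd13 and 664 CPM of Grem1) and the library labelled HSCR distal 1 at the lower left (0.61 and 9.497 CPM).

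The receiving genes and Bmp2 varied together. Over the 16 libraries Pearson's r of log2 CPM was 0.77 between Smad6 and Smad7, 0.77 between Smad6 and Id1, 0.80 between Smad7 and Id1, 0.80 between Bmp2 and Smad6 and 0.78 between Bmp2 and Id1. Bmp4 and Id1 had an r of 0.15 and Bmp7 and Grem1 one of -0.68. These points share library depth, tissue composition and the group differences above. The genes most like Id1 were Sdc1 (r = 0.903), a syndecan of epithelial and plasma cells, Tmem144 (0.898) and Slc35a3 (0.838), and those most like Bmp2 were Perp (0.905), a desmosomal protein of epithelia, Slc35a3 (0.900) and Dus1l (0.891).

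For Smad6 the most similar genes were Catsperg1 (0.888), Vmn2r1 (0.887) and Mars2 (0.879), and for Smad7 Catsperg1 (0.843), Edem2 (0.833) and Sppl2a (0.826). Bmp4 was closest to Gm17501 (0.837), A430103D13Rik (0.831) and Tnfrsf11b (0.825), a decoy receptor for RANKL. Nog was closest to Pcdh11x (0.773), Uhrf2 (0.759) and Dbpht2 (0.748), Bmp7 to Prpsap1 (0.810), Bdkrb2 (0.801) and Cybc1 (0.799), and Bmp5 to Smug1 (0.937), Sh3rf2 (0.936) and Ints11 (0.934). The Bmp5 values include libraries with 0 to 34 counts, where log2 CPM depends on the prior count.

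The pathway as a whole was followed with a list of 63 genes by role, including the 9. In the proximal comparison 54 were tested, 37 had a log2 fold change above 0 and 17 below, and the median was 0.26 against 0.04 over all genes tested. Of the 54, 3 were higher and 2 lower at an unadjusted p under 0.05, together 9.26% against 6.62% of all genes. The 3 higher were the members Smad6, Smad7 and Id1, and 0 of the 45 other genes were higher at that level.

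The genes that were lower at that level were Hey1 and Sostdc1. These 2 of 54 list genes compare with 689 of all 16664 genes tested, a similar share. The share of all genes without overlap in the lower direction is not given here. Hey1, a transcription factor shared by BMP and Notch signalling, was at 13.7 to 19.5 CPM in WT proximal and 4.92 to 10.4 CPM in HSCR proximal colon, without overlap (log2 fold change -1.37 ± 0.35, SE, edgeR unadjusted p = 0.00325, adjusted p = 0.629). Sostdc1, a secreted antagonist of BMP and Wnt ligands, was at 15.6 to 31.7 CPM in WT and 0.41 to 8.92 CPM in HSCR, also without overlap (-1.90 ± 0.73, edgeR unadjusted p = 0.0287, adjusted p = 0.747). In the distal colon their log2 fold changes were -0.51 ± 0.48 and -1.51 ± 0.72, neither with an unadjusted p under 0.05, and that of Sostdc1 was -2.05 (edgeR unadjusted p = 0.0290) without the library labelled HSCR distal 1.

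By role, 8 of 10 ligands tested in the proximal colon had a log2 fold change above 0 (median 0.47), as did 11 of 18 antagonists (0.28), 8 of 11 receptors and co-receptors (0.22), 5 of 8 Smads and Smad ubiquitin ligases (0.10) and 5 of 7 targets (0.30). In the distal colon it was 8 of 10 ligands (0.52), 10 of 17 antagonists (0.11) and 12 of 12 receptors (0.18). It was 3 of 8 Smads (-0.08) and 4 of 7 targets (0.31), with none in any role at an unadjusted p under 0.05. The lowest edgeR unadjusted p of a receptor was 0.116, and some receptor values were near 0 (0.004 for Bambi, 0.06 for Acvr2a). The median over all genes tested was 0.04 in either segment, and the share of all genes above 0 is not given here. The values of the other Id genes, chosen after they were seen, stood beside that of Id1 as 0.55 ± 0.37 for Id2, 0.92 ± 0.42 for Id3 and 0.30 ± 0.54 for Id4 in the proximal colon (unadjusted p = 0.170, 0.0541 and 0.594), with Id3 at 1.06 (edgeR unadjusted p = 0.04997) and Id4 at -0.35 without HSCR library 1. Fst, which binds activins and BMPs and was also chosen after its values were seen, had 16.2 to 32.6 CPM in WT and 4.22 to 232 CPM in HSCR proximal colon (log2 fold change 2.21 ± 1.03, unadjusted p = 0.0600) and 2.05 ± 0.99 in the distal colon. With the replicate block these became 0.86 and 0.90, and the proximal value was 2.58 (edgeR unadjusted p = 0.0276) without HSCR library 1. Its mean log2 CPM differed by 0.88 in the proximal colon, by -1.32 in replicates 1 and 2 and by 3.08 in replicates 3 and 4.

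**Figure D5:**
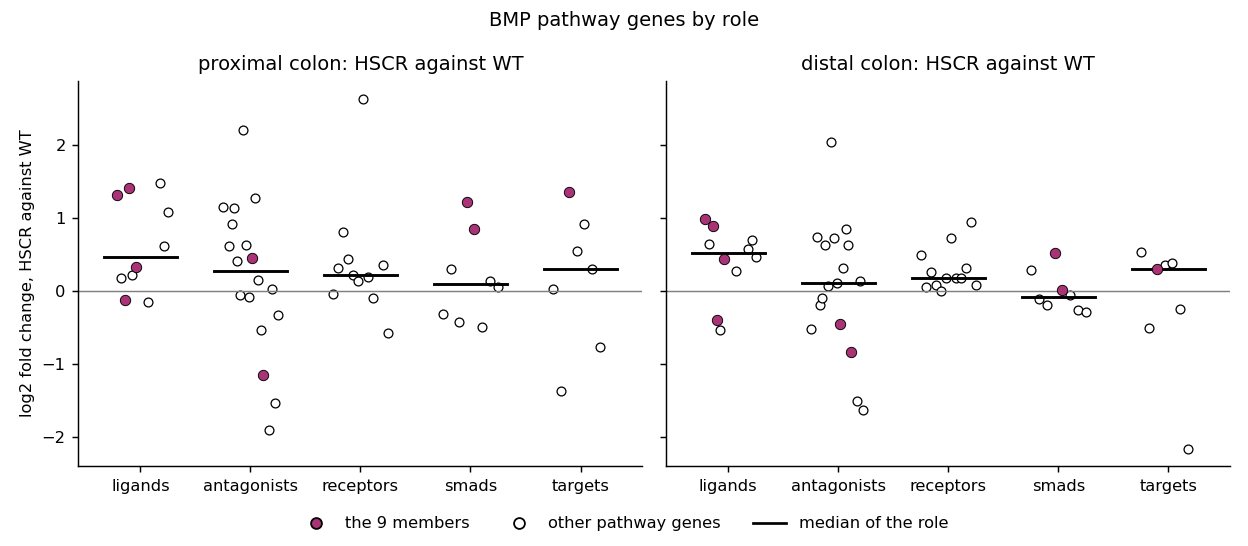
Fitted log2 fold changes of the tested genes of the 63-gene BMP list (points) by role in HSCR against WT proximal and distal colon, with the 9 members filled and a line at the median of each role. In the proximal panel the filled points of the Smads and targets (Smad6 1.23, Smad7 0.85, Id1 1.36) lie above the medians of their roles (0.10 and 0.30), and in the distal panel Smad7 and Id1 lie at 0.01 and 0.31.

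In WT colon, distal against proximal, 10 of 53 list genes had an unadjusted p under 0.05, or 18.9% against 5.23% of all genes, 7 of them higher and 3 lower. None of these passed after adjustment, and the library name series was not held constant between the WT segments. Beside Grem1 and Smad6, and named after the values were seen, the lowest p were those of Chrdl1, a chordin-like antagonist (14.6 to 23.7 CPM in proximal and 35.1 to 108 CPM in distal colon, log2 fold change 1.84 ± 0.38, SE, unadjusted p = 0.000856, adjusted p = 0.788), and Id4 (28.7 to 55.7 and 75.5 to 145 CPM, 1.35 ± 0.29, unadjusted p = 0.00107, adjusted p = 0.803).

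Per length, the most abundant genes of the list over the 16 libraries were the secreted antagonists Fstl1 (158 FPKM on average) and Nbl1 (120.5 FPKM), above Grem1 (56.2 FPKM). The highest ligand was Gdf10 (23.4 FPKM), ahead of Bmp4 (19.3 FPKM). The highest receptor genes were the co-receptors Rgmb (32.1 FPKM) and Rgma (31.3 FPKM), the highest Smads were Smad4 (29.6 FPKM) and Smad5 (11.9 FPKM), and the highest targets were Id1 (33.9 FPKM) and Id3 (30.3 FPKM).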

How the data were processed

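Poly-A RNA-seq libraries of 16 LMMP samples were mapped by the authors with HISAT2 2.2.1 to mm39 and counted with featureCounts 2.0.6 against a GENCODE gene model. The deposited table holds whole read counts per gene and FPKM values that the authors computed from them. A second deposited table holds the authors' own comparison (fold changes and p-values) and was not used. Libraries were grouped by the labels' titles.

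Counts were fitted per comparison with edgeR 4.0.16 (R 4.3.3) on 8 libraries, or on 16 for the segment difference, after filterByExpr and TMM, with the quasi-likelihood test. A call needed a Benjamini-Hochberg adjusted p under 0.05 over all tested genes and a log2 fold change beyond 1. CPM were TMM-scaled over 16 libraries, and log2 CPM used a prior count of 0.5. FPKM were used only for levels between genes. The fits were run on simulated data, at the spread of these libraries and at a smaller one. Recovery of the set changes was required only at the smaller spread, so the power at the real spread is not given here. Exact permutation tests of mean log2 CPM were two-sided, and depth (21384372 to 45831881 counts) limits counting error only.

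The 9 genes, the pathway and marker lists were chosen with earlier results of these data known. The genes named were Ednrb, the 9, list genes called in any comparison or with an unadjusted p under 0.05 in a genotype comparison, the 2 most abundant of each role, and the 3 genes most correlated with each member; others are marked as chosen after their values were seen. Alternatives were DESeq2 1.42.0, the RUVr test, other size factors, no low-count filter, no mitochondrial genes, all libraries in 1 model, a replicate block, the library name series, no fold limit and leaving out each library. Python 3.11.15 with scipy 1.17.1 was used for the rest.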

Additional observations from a re-analysis of the deposited data

Results flagged for a closer look

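Of 36 sets of 4 libraries (9 genes in 4 groups), 2 held a library whose gap to its nearest neighbour took up more of the range than Dixon's 95% limit, about as many as the 1 in 20 that chance gives. HSCR proximal library 2 had 36.6 CPM of Smad6, with the other 3 libraries of its group at 18.5 to 20.6 CPM. HSCR proximal library 4 had 0.424 CPM of Bmp5 (12 counts), with the other 3 at 2.45 to 3.08 CPM.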

How the results depend on the processing

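The number of genes called was 0 in HSCR against WT proximal colon, 237 with DESeq2 and 2669 with the RUVr test. With the replicate split term it was 4. It was 0 in the distal colon, 45 with DESeq2 and 1116 with the RUVr test. For WT distal against proximal colon it was 3, 70 with DESeq2, 1843 with the RUVr test, 0 with all 16 libraries in 1 model, and 0 to 2 with 1 library left out. For HSCR distal against proximal colon it was 0, 4 with DESeq2 and 351 with the RUVr test, and for the segment difference it was 0, 9 with DESeq2 and 309 with the RUVr test. The cause of these differences was not tested.

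Replicate numbers were not taken as pairs: correlations of same-numbered deviations ran from -0.24 to 0.46 and fell under 0.1 for at least 1 pair in each comparison. The best match of a distal library was the proximal one of its own number for WT replicates 1, 2 and 3 and HSCR replicates 2 and 4. Between genotypes this held for replicate 3 in the proximal and replicate 4 in the distal colon. Whether both segments of a genotype came from the same mice is thus not known, and the main tests were unpaired. With the replicate block, WT distal against proximal colon gave 1 call and the other comparisons 0, and the sign turned for Grem1 in the proximal colon (-1.31), Ednrb in the distal colon (-1.09) and Nog between WT segments (0.00414).

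Of 47 log2 fold changes of named genes, 37 never changed sign. In the proximal colon Grem1 turned to -0.45 with the RUVr test and ran from -1.40 (without HSCR library 1) to 0.85 with 1 library left out, and Bmp4 from -0.68 to 0.20. Id4, at 0.30, turned to -0.077 (RUVr), -0.0295 (replicate block) and -0.017 (replicate split term). It ran from -0.35 (without HSCR library 1) to 0.58. In the distal colon Ednrb, at 0.27, turned to -0.78 (RUVr) and -0.16 (replicate split term). It ran from -1.83 (without HSCR library 1) to 0.63, and Bmp7 ran from -0.17 (without HSCR library 1) to 0.99. Smad7, at 0.01, turned to -0.027 (RUVr) and -0.00807 (mitochondrial genes left out) and ran from -0.21 to 0.19. Between WT segments Nog, at -0.03, turned to 0.13 (RUVr) and ran from -0.61 to 0.22. Between HSCR segments Grem1 ran from -0.32 to 2.10 and Bmp2 from -0.081 to 1.06. For the segment difference Grem1, at -0.91, ran from -1.53 to 0.98 (without HSCR proximal library 1) and turned to 1.34 without both HSCR libraries numbered 1, an alternative chosen after seeing the data. Signs of Smad6, Id1 and Bmp2 in the proximal colon held under all alternatives run. Counts of 0 to 34 limit Nog and Bmp5 in single libraries.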
